A study of Mus musculus with 6 samples.

Results

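The GIMAP genes (GTPases of immunity-associated proteins) encode small GTP-binding proteins of lymphocytes, and all 8 mouse members named Gimap1, Gimap3, Gimap4, Gimap5, Gimap6, Gimap7, Gimap8 and Gimap9 were found by symbol among the 22899 genes of each library. All 8 also passed the filter on low values, as did 10788 of the 22899 genes. Helper (CD4+) T cells were sorted by flow cytometry from the spleens of C57BL/6 mice, and their RNA was sequenced. The lean group received normal chow (3 libraries), and the obese group received a diet with 60 kcal% fat (3 libraries). Feeding began at about 6 to 8 weeks of age and lasted for up to 4 months. No genetic change is named for either group, and the labels do not say whether a library is 1 mouse or a pool, so a p-value reflects only how far these libraries spread. The unit is FPKM, the fragments counted for a gene, corrected for transcript length and for library size. The number of reads behind each value is unknown.

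GIMAP proteins share a GTPase domain of the AIG1 type, named after a plant defence gene, and several of them sit on the membranes of the endoplasmic reticulum, Golgi, lysosomes or mitochondria. They are best known from animals that lack one: without functional Gimap5, rats and mice lose peripheral T cells, and without Gimap1 mature T and B cells are depleted. In naive T cells the family is strongly expressed, and it is counted among the genes that keep resting lymphocytes alive.

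The 8 genes lie side by side on chromosome 6 within 123.7 kb (48647186 to 48770851, GRCm38, RefSeq). Along the chromosome the order is Gimap8, Gimap9, Gimap4, Gimap6, Gimap7, Gimap1, Gimap5 and Gimap3, with Gimap6 and Gimap3 on the minus strand and the others on the plus strand. Gimap3 and Gimap5 are neighbours and close copies. Their coding sequences were identical at 90.3% of 898 aligned bases (GENCODE M21, GRCm38), whereas the other 27 pairs of members were identical at 56.2% to 73.9%. The longest stretch without a difference between Gimap3 and Gimap5 covered 140 bases, while no other pair shared more than 17. It lies in exon 5 of 5 of Gimap3 (chr6:48765681-48765820, minus strand) and in exon 3 of 3 of Gimap5 (chr6:48752684-48752823, plus strand), in coding sequence. The stretch is shown because a short read from within it cannot be assigned to 1 of the 2 genes.
Gimap3 and Gimap5, shared coding stretch: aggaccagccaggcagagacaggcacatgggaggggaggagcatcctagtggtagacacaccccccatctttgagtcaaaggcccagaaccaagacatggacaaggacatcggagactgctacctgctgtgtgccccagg

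Of the 50-base words in the transcript with the longest coding sequence, 9.06% of those of Gimap3 also occurred in Gimap5 transcripts, and 9.98% of those of Gimap5 in Gimap3 transcripts. At 100 bases the shares were 2.0% and 2.21%. No 50-base word of any other member occurred in another member. Neither the read length nor the rule for shared reads is stated in the sources used here. The split between Gimap3 and Gimap5 is therefore uncertain. These shares count words and not reads, and they do not bound that uncertainty for Gimap5. With means of 514.3 FPKM for Gimap3 and 51.8 FPKM for Gimap5, a misplaced share of Gimap3 reads would weigh most on Gimap5. GENCODE also lists Gm28053, a transcript that runs from Gimap7 to Gimap5. It contained 5.42% of the 50-base words of Gimap1, 5.51% of those of Gimap5 and 2.62% of those of Gimap7. Gm10310 and Gm49762 held further words of Gimap1, and Gm38409 some of Gimap3. Over all other genes, members included, the shares were 7.96% for Gimap1, 9.83% for Gimap3 and 15.07% for Gimap5. Gimap1os, an antisense RNA, overlaps Gimap1, and without stated strandedness its reads could not be told from those of Gimap1.

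The 250 bases before each start in the RefSeq promoter table are shown for 4 genes: Gimap3 and Gimap4, which had the highest levels, Gimap5, the low copy of Gimap3, and Gimap8, which had the lowest level. Gimap8 has 2 starts in that table, and both windows are shown; they overlap each other and run past 48647186, the first base of the gene in the RefSeq gene table. The sequences are those of RefSeq on GRCm38.p6, and capitals mark the ETS core GGAAG on either strand.
Gimap3, chr6:48770852-48771101, minus strand: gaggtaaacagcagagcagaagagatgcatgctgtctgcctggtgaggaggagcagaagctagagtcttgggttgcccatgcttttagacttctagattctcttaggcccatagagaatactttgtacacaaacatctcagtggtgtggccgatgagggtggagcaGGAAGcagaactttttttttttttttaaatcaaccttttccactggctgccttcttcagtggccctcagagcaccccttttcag
Gimap4, chr6:48684328-48684577, plus strand: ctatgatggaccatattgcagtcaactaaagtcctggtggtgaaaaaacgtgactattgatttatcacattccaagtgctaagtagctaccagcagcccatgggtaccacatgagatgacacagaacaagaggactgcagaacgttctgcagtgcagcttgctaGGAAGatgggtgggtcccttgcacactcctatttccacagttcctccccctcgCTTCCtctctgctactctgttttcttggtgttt
Gimap5, chr6:48745947-48746196, plus strand: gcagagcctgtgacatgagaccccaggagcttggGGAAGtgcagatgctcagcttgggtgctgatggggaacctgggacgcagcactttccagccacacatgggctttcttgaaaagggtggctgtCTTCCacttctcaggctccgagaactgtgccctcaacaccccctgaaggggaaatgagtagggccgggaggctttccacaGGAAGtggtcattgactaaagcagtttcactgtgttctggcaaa
Gimap8 first start, chr6:48646984-48647233, plus strand: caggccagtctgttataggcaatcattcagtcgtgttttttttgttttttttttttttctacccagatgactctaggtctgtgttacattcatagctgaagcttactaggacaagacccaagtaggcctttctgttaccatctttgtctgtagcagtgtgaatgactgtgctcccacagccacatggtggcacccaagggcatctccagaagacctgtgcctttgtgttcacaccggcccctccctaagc
Gimap8 second start, chr6:48647111-48647360, plus strand: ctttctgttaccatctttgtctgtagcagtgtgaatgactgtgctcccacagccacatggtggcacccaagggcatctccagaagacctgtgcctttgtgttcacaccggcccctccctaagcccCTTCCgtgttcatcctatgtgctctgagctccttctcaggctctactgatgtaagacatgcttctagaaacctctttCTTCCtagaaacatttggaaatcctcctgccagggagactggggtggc

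Across the 9 such windows of the 8 genes (Gimap8 has 2 starts), 8 held GGAAG on either strand, all but that of the first Gimap8 start, against 64.1% of 32851 windows of all genes. The KLF core CACCC was in 6 of 9, against 52.0% of all windows. Both Gimap8 windows, which overlap, are among these 6. The RUNX core TGTGGT was in 3 of 9, against 14.0%. The STAT pattern TTCNNNGAA was in 2 of 9 (7.02% of all windows), the FOXO pattern GTAAACA in 1 (3.17%), and the TCF/LEF pattern CTTTGA (13.8%) and the RBPJ pattern TGGGAA (21.6%) in none. Both strands were searched, and matches of different patterns may overlap. These matches describe letters in a window and not binding.

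All 8 genes were expressed in every library, and their levels spanned a 13.4-fold range. FPKM is scaled by transcript length, and levels are compared between genes on that basis. This scaling does not correct for shared reads. The share of G and C in the coding sequences also differed, from 43.4% (Gimap9) to 63.5% (Gimap1), and its part in the levels was not tested. Gimap3 had the highest mean over the 6 libraries (514.3 FPKM), followed by Gimap4 (475.6), Gimap6 (324.5), Gimap1 (132.7), Gimap7 (91.6), Gimap9 (71.1), Gimap5 (51.8) and Gimap8 (38.4). Gimap3 and Gimap4 ranked 153 and 160 among the 10788 tested genes, and Gimap8 ranked 2105. Together Gimap3 and Gimap4 made up 58.2% of the summed mean of the family. Of the 7 neighbouring pairs in this order, 6 did not overlap in range over the 6 libraries, but Gimap3 and Gimap4 did. Gimap3 exceeded Gimap4 in 5 of 6 libraries, with a ratio between 0.981 and 1.26. The gaps between Gimap7 and Gimap9, Gimap9 and Gimap5, and Gimap5 and Gimap8 were narrow: the lowest Gimap5 value was 45.14 FPKM and the highest Gimap8 value 44.76 FPKM. Within a library, however, the higher gene of each of these 3 pairs was higher in all 6. The place of Gimap5 in this order is uncertain, because the rule for reads shared with Gimap3 is unknown.

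**Figure D1:**
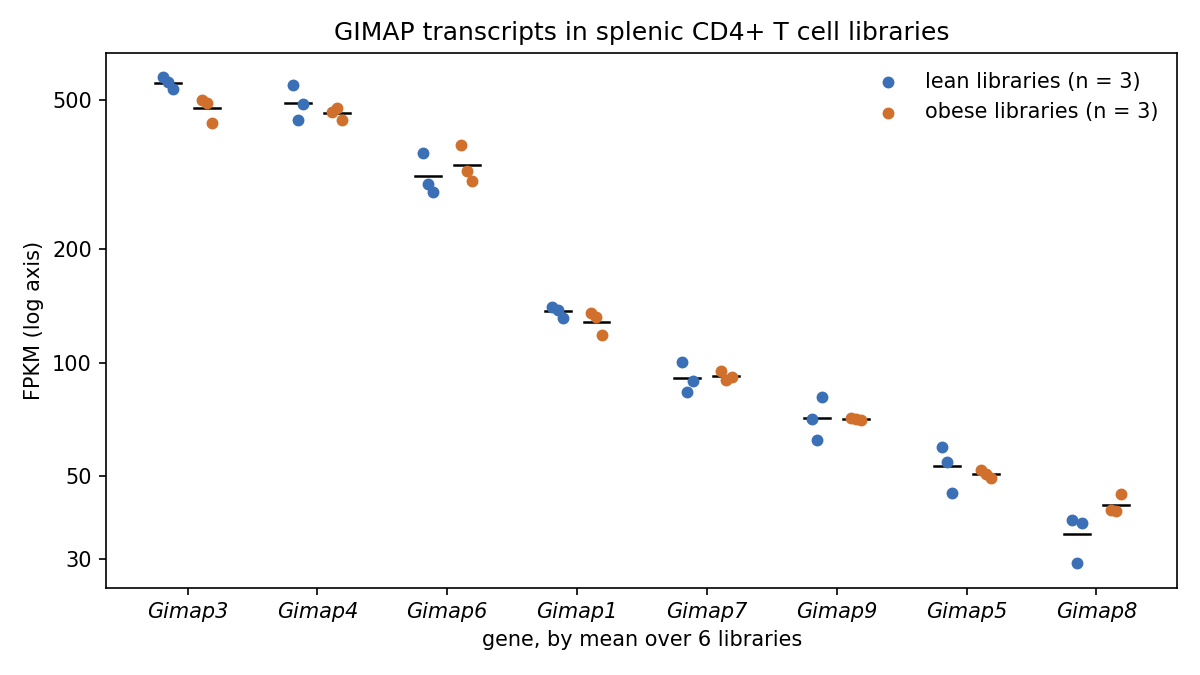
FPKM of the 8 GIMAP genes in each library on a log axis, ordered by their mean. Points are libraries, 3 lean (blue) and 3 obese (orange), and black bars are group means. The points of the 2 groups stay separate for Gimap3 (lean higher) and Gimap8 (obese higher) and overlap for the other 6 genes.

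Neighbouring genes of the cluster had unlike levels. Gimap3, the highest, and Gimap5, the second lowest, stand next to each other. The ratio of Gimap3 to Gimap5 lay between 8.75 and 11.8 over the 6 libraries, with shared reads split by an unstated rule. Gimap8, the lowest, is the outermost gene on the other side. RefSeq lists 37 further genes inside the cluster or within 250 kb of it. Of these, 2 lie inside, and Gm46958, a non-coding RNA (48675832 to 48676809), overlaps the start of Gimap9. Neither was in the files. Of the 37 genes, 15 were in the files and 7 passed the filter. None of the 7 passed the test between groups (limma, Benjamini-Hochberg adjusted p under 0.05 as the threshold). Their means reached at most 50.2 FPKM, for Tmem176b, a membrane protein of antigen-presenting cells and some T cells, and it alone exceeded the lowest GIMAP gene. The window was chosen after the values were seen.

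**Figure D2:**
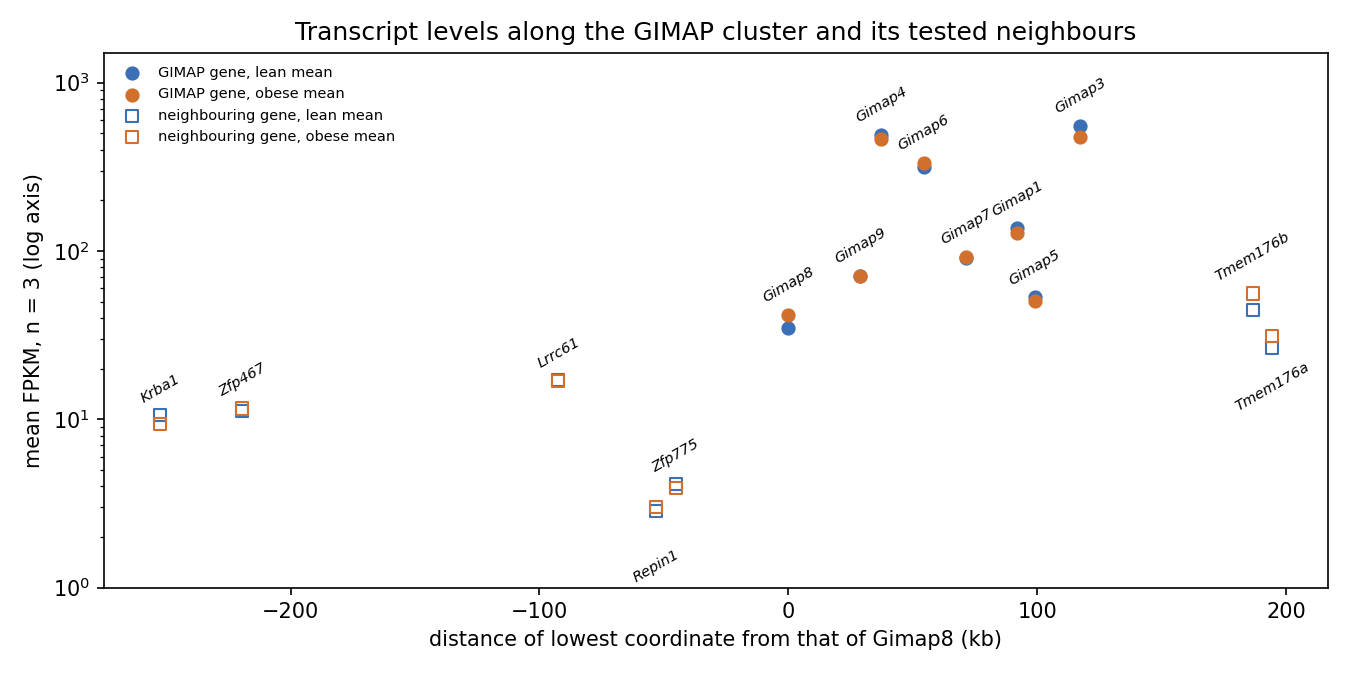
Mean FPKM (n = 3 per group, log axis) against the distance of each gene from Gimap8 in kb, for the 8 GIMAP genes (filled circles) and the 7 tested neighbours within 250 kb (open squares). Lean means are blue and obese means orange. The 6 GIMAP genes with the highest means lie above every neighbour in both groups, with Gimap3 and Gimap4 highest.

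Obese libraries were set against lean ones to see which helper T cell transcripts differ with obesity brought on by diet. None of the 8 GIMAP genes passed the test (limma on log2(FPKM + 1), Benjamini-Hochberg adjusted p under 0.05 over all tested genes), with adjusted p from 0.131 to 0.984. Over all tested genes 6.28% passed (678 of 10788), 5.77% as higher and 0.519% as lower in obese libraries (622 and 56 genes), so that the same share of 8 genes amounts to less than 1 gene. At an unadjusted p under 0.05 there were 2 of 8 members and 25.9% of all tested genes. The median log2 difference, obese minus lean, was −0.03 for the 8 members and 0.10 for all tested genes. Of the members, 5 had a negative difference and 3 a positive one, whereas 7634 of the 10788 tested genes had a positive one. The 95% intervals of the 8 differences, as folds on the FPKM + 1 scale, all lay between 0.750 and 1.42. These values move with the scaling of the libraries. The split of higher to lower calls over all genes was 434 to 173 after median-of-ratios scaling, 322 to 112 after quantile normalization, 766 to 49 after TPM scaling and 942 to 45 after scaling without 10 immunoglobulin, haemoglobin and mitochondrial genes. In the same order the median log2 difference was −0.03, −0.03, 0.17 and 0.20 for all tested genes and −0.18, −0.05, 0.03 and 0.07 for the 8 members, of which 7, 5, 3 and 1 had a negative difference. For each member, the lowest of the 18 alternative values came from median-of-ratios scaling and the highest from the scaling without those 10 genes.

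**Figure D3:**
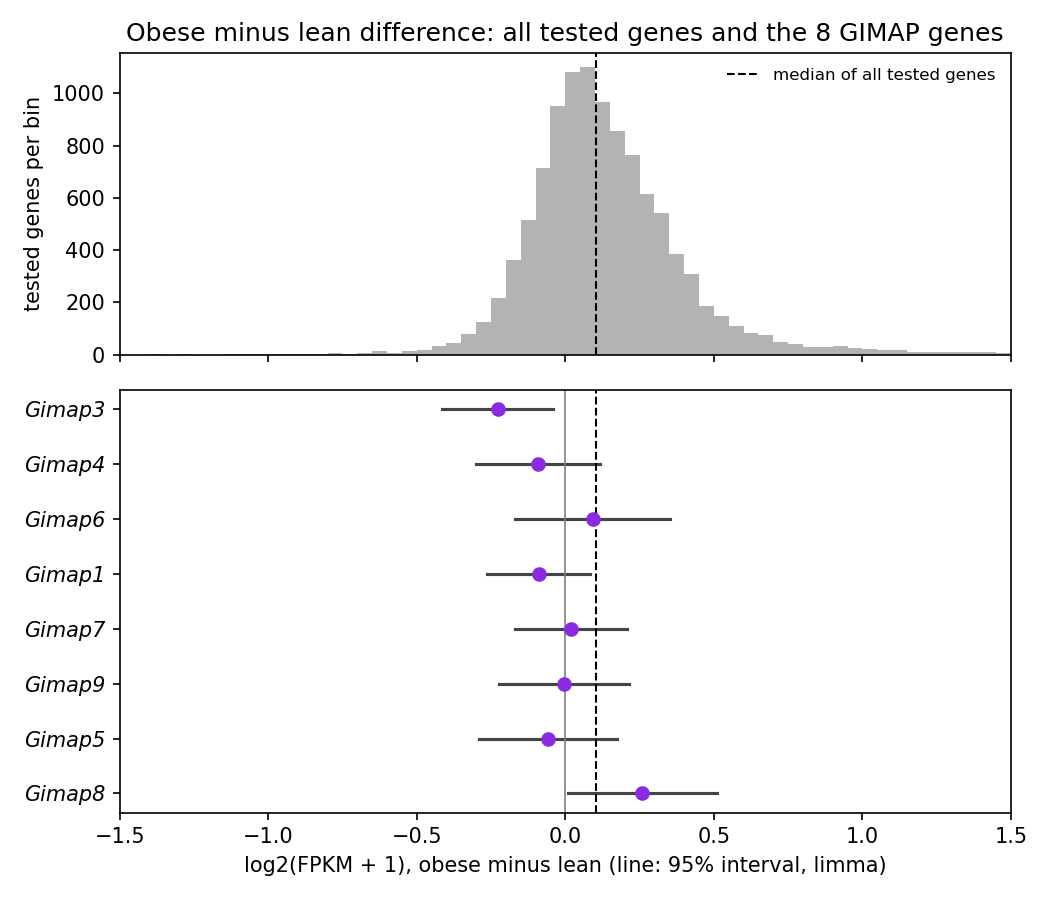
Difference in log2(FPKM + 1), obese minus lean. The upper panel is a histogram of the tested genes (bins of 0.05; 82 genes beyond 1.5 in size are not drawn) and the lower panel gives each GIMAP gene with its 95% interval from limma. The dashed line is the median of all tested genes, 0.10; the intervals of Gimap3 (below 0) and Gimap8 (above 0) leave out 0 before adjustment for the number of genes tested.

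Gimap3, Gimap5 and Gimap1 carry a membrane anchor at their carboxyl end and are the members tied most closely to lymphocyte survival. Gimap5 (gene 317757), whose loss shortens T cell life, stood at 59.47, 54.57 and 45.14 FPKM in the lean libraries and at 51.91, 50.43 and 49.46 FPKM in the obese ones. The obese values lay inside the lean range. The part of reads shared with Gimap3 in these values was not tested. The means were 53.1 ± 7.28 and 50.6 ± 1.23 FPKM (SD, n = 3 each), and the log2 difference was −0.06 ± 0.10 (SE; limma, adjusted p = 0.749), and the 2 scalings at the ends of the range gave −0.21 and 0.05.

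Gimap3 (gene 83408), the close copy of Gimap5 in the mouse, stood at 573.45, 556.98 and 532.73 FPKM in the lean libraries and at 499.39, 490.37 and 432.7 FPKM in the obese ones. Every obese library lay under every lean one, with obese 3 the lowest. Among all tested genes 31.5% had groups that did not overlap, and 6.15% had all obese libraries lower. The means were 554.4 ± 20.5 and 474.2 ± 36.2 FPKM (SD, n = 3 each), so the obese mean was lower by 14.5% of the lean one. The log2 difference was −0.23 ± 0.08 (SE; 95% interval −0.41 to −0.04; limma, unadjusted p = 0.0227, adjusted p = 0.131) and did not pass. It passed in 1 of 18 other settings, with library weights (−0.22; limma, adjusted p = 0.0148), where 3116 genes passed. After median-of-ratios scaling it was −0.38 and after scaling without the 10 genes −0.12, the ends of its range, and neither passed (limma, adjusted p = 0.0789 and 0.184). On the log2 scale 4.53% of tested genes had a difference as low or lower.

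Gimap1 (gene 16205), needed for mature T and B cells, stood at 140.44, 138.01 and 131.74 FPKM in lean and at 135.22, 132.27 and 118.28 FPKM in obese libraries. The groups overlapped, and obese 3 was again lowest. The log2 difference was −0.09 ± 0.08 (SE; limma, adjusted p = 0.477), and it ran from −0.24 after median-of-ratios scaling to 0.02 after scaling without the 10 genes.

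Gimap4, which speeds the death of T cells after a death stimulus, stood at 545.47, 441.83 and 487.09 FPKM in lean and at 462.35, 475.62 and 441.08 FPKM in obese libraries. The highest value was that of lean 1 and the other 5 libraries lay close together, without a split by group. The log2 difference was −0.09 ± 0.09 (SE; limma, adjusted p = 0.551), with −0.24 after median-of-ratios scaling and 0.01 after scaling without the 10 genes.

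Gimap6, which binds the autophagy protein Gabarapl2, stood at 360.23, 298.79 and 283.46 FPKM in lean and at 378.04, 322.26 and 304.05 FPKM in obese libraries. Lean 1 and obese 1 were the 2 highest, and the groups overlapped. The log2 difference was 0.09 ± 0.11 (SE; limma, adjusted p = 0.635); it turned to −0.058 after median-of-ratios scaling and was 0.20 after scaling without the 10 genes.

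Gimap7, whose GTPase activity rises when it pairs with itself or other members, stood at 100.53, 83.5 and 89.23 FPKM in lean and at 95.06, 89.72 and 91.56 FPKM in obese libraries. Gimap9 (gene 317758) stood at 70.59, 62.38 and 81.16 FPKM in lean and at 71.25, 70.72 and 70.36 FPKM in obese libraries. For both genes the obese values fell inside the lean range, and the 3 obese values of Gimap9 had an SD of 0.448 FPKM against 9.41 FPKM in lean libraries. Their log2 differences were 0.02 ± 0.08 and −0.0039 ± 0.097 (SE; limma, adjusted p = 0.901 and 0.984), and the sign of each depends on the scaling, with −0.13 to 0.13 for Gimap7 and −0.15 to 0.10 for Gimap9.

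Gimap8 (gene 243374) encodes the longest member, with several GTPase domains in a row, and its longest coding sequence of 2067 bases compares with 876 to 987 bases in the others. It stood at 38.1, 29.27 and 37.5 FPKM in the lean libraries and at 40.47, 40.19 and 44.76 FPKM in the obese ones. Every obese library lay above every lean one, with lean 2 lowest and obese 3 highest, as 25.4% of tested genes had all obese libraries higher. The means were 35.0 ± 4.93 and 41.8 ± 2.56 FPKM (SD, n = 3 each), an obese mean 19.6% above the lean one. The log2 difference was 0.26 ± 0.11 (SE; 95% interval 0.01 to 0.51; limma, unadjusted p = 0.0435, adjusted p = 0.181) and did not pass in any of the 18 other settings. Without lean 2 it was 0.14 (limma, adjusted p = 0.440), with library weights 0.14 (limma, adjusted p = 0.199), and after median-of-ratios scaling 0.11 (limma, adjusted p = 0.494), the lowest of the 18; the highest was 0.36 (limma, adjusted p = 0.0954).

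Gimap3 and Gimap8, at the 2 ends of the cluster, thus differed in opposite directions in size, neither past the threshold. Expressed as a share of Gimap3, Gimap8 was 6.64%, 5.26% and 7.04% in the lean libraries and 8.10%, 8.20% and 10.3% in the obese ones. The 2 groups did not overlap in this share, which follows from the separation of the groups in each gene and adds nothing to it. The share was formed after the values of both genes were seen and was not tested.

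The members did not move as 1 block between libraries. Over the 6 libraries, 21 of the 28 pairs of members had a positive Pearson correlation of log2(FPKM + 1) and 7 a negative one, with a median of 0.39. Gimap1 and Gimap3 had the highest, 0.92, and Gimap3 and Gimap8 the lowest, −0.74. These values describe 6 libraries that share the group difference and the scaling of each library. Lean 1 lay 0.08 to 0.20 above the mean of the 6 libraries on the log2 scale for 6 of the 8 genes, and near it for Gimap8 and Gimap9. Obese 3 was the lowest library for Gimap3, Gimap4 and Gimap1 and the highest for Gimap8.

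**Figure D4:**
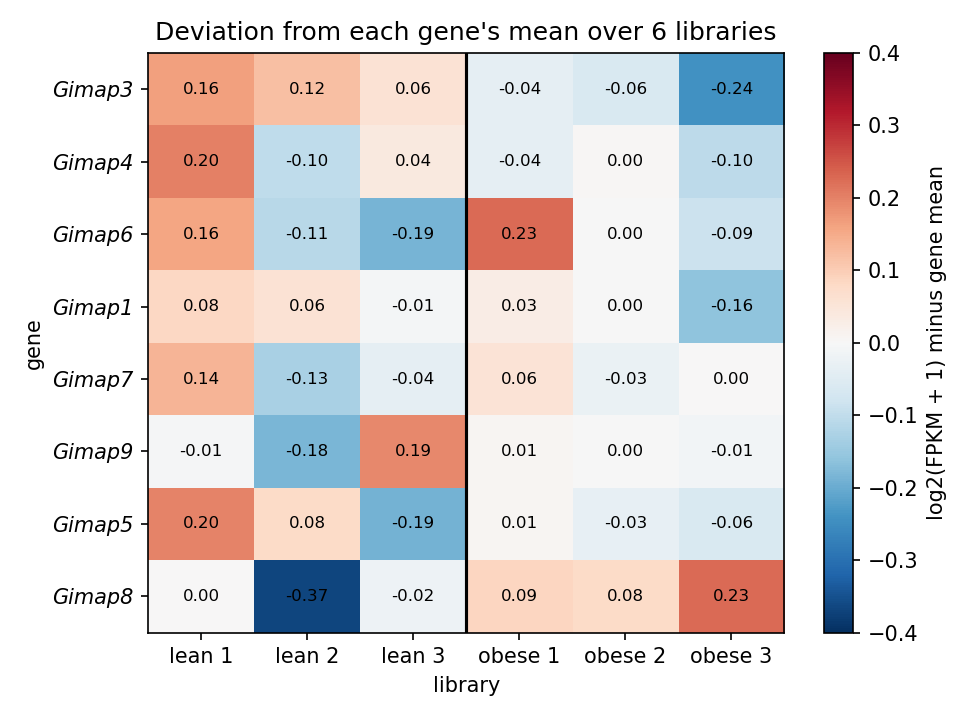
Deviation of each GIMAP gene (rows, by level) in each library (columns) from that gene's mean over the 6 libraries, on the log2(FPKM + 1) scale. Red is above and blue below the mean. Gimap3 is positive in the 3 lean and negative in the 3 obese libraries, Gimap8 reaches −0.37 in lean 2 and 0.23 in obese 3, and the other genes vary within the groups.

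The libraries were checked against markers of the sorted cell type and of other cells. The 12 core T cell markers, which include Cd3e and Cd4, were all tested and none was at 0 or passed the test. Their FPKM summed to between 3760 and 4160 in lean and to between 3305 and 3994 in obese libraries, and 11 of the 12 had a negative difference. All 10 erythroid markers rose, and their sum was 175.1 to 475.9 FPKM in lean and 4363 to 29050.2 FPKM in obese libraries. All 12 macrophage markers rose as well, from a sum of 950.4 to 1019 FPKM in lean to one of 2006 to 2212 FPKM in obese libraries. Neutrophil markers went the other way: 9 of 10 had a negative difference, 6 of these passed, and the sum was 546.9 to 786.7 FPKM in lean and 157.0 to 415.9 FPKM in obese libraries. B cells also express GIMAP genes. All 12 of their markers had a positive difference, with a median of 0.47 on the log2 scale, but none passed, and their sum was 402.3 to 859.4 FPKM in lean and 578.7 to 1101 FPKM in obese libraries. All 6 plasma cell markers had a positive difference (median 0.65) and 1 passed, Jchain, with a sum of 479.1 to 563.8 FPKM in lean and 767.7 to 1393 FPKM in obese libraries. Natural killer cells, another GIMAP-expressing type, had 7 of 8 markers with a negative difference, of which 3 passed, and marker sums of 135.0 to 164.0 FPKM in lean and 110.0 to 129.4 FPKM in obese libraries, which do not overlap. Beside these counts, 5.77% of all tested genes passed as higher and 0.519% as lower. None of the CD8 T cell (2 tested), platelet (6), dendritic cell (4) or endothelial (1) markers passed. Their sums in lean and obese libraries were 55.1 to 74.7 and 48.6 to 79.6 FPKM for CD8 T cells, 31.5 to 53.5 and 49.8 to 69.9 FPKM for platelets (all 6 positive), 12.8 to 16.1 and 12.4 to 19.2 FPKM for dendritic cells, and 51.6 to 58.9 and 50.6 to 63.6 FPKM for endothelium. In such bulk RNA, fewer cells of a type and less RNA per cell cannot be told apart, and the part of these cells in the GIMAP levels was not tested.

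Set against the T cell transcripts of the same library, the family's sum did not separate the groups. The 8 genes summed to 1888, 1665 and 1688 FPKM in lean and to 1734, 1672 and 1552 FPKM in obese libraries, which overlap. Divided by the summed core T cell markers, this gave ratios of 0.454, 0.415 and 0.449 for the lean group and of 0.448, 0.419 and 0.470 for the obese group. Their means were 0.439 ± 0.0211 and 0.445 ± 0.0256 (SD, n = 3 each), a difference of 1.36% of the lean mean that was smaller than either SD. After scaling each library by its core T cell markers, the log2 differences of Gimap3 and Gimap8 were −0.16 and 0.33, and neither passed (limma, adjusted p = 0.262 and 0.218). Across the 6 libraries the core T cell marker mean (log2 scale) had a Pearson correlation of 0.93 with Gimap1, 0.79 with Gimap3 and −0.45 with Gimap8, as a description of libraries that share their scaling.

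**Figure D5:**
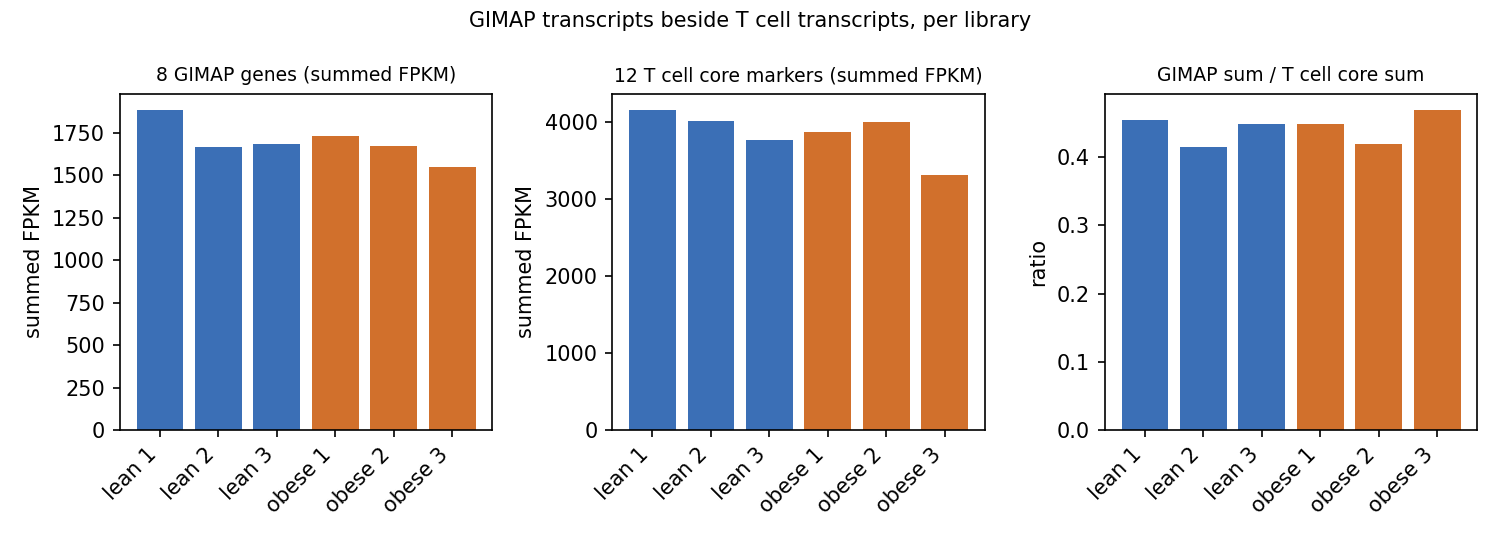
Summed FPKM of the 8 GIMAP genes (left), of the 12 core T cell markers (middle), and their ratio (right), for each lean (blue) and obese (orange) library. Obese 3 has the lowest sum in both the left and the middle panel, and the ratio lies between 0.415 and 0.470 in all 6.

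Genes of the pathways that GIMAP proteins have been tied to were followed as lists. T cell survival through the interleukin-7 receptor and STAT5 had no called member among 10. Il7r, the receptor chain that naive and memory cells use, stood at 51.67, 45.55 and 73.16 FPKM in lean and 74.35, 76.94 and 81.13 FPKM in obese libraries. These groups did not overlap, but lean 3 lay close to the obese values, and the log2 difference of 0.47 did not pass (limma, adjusted p = 0.102). Without lean 3 it was 0.66 and passed (limma, adjusted p = 0.00729), as it did with library weights (0.55, limma, adjusted p = 0.00187). It was smaller after median-of-ratios scaling (0.32) and without lean 2 (0.33), and passed in neither (limma, adjusted p = 0.196 and 0.282). Il2rg, the shared cytokine receptor chain, had −0.13 (limma, adjusted p = 0.283) and did not pass in any setting, with −0.29 after median-of-ratios scaling and −0.028 after scaling without the 10 genes named above.

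In the BCL2 family of death regulators, to which GIMAP proteins have been reported to bind, 2 of 15 tested genes rose and none fell, beside 5.77% and 0.519% of all tested genes. Bcl2a1d and Bcl2a1b, near-identical copies of the anti-apoptotic A1 gene whose reads may be shared, rose by 0.64 and 0.53 on the log2 scale (limma, adjusted p = 0.00264 and 0.00728). Bcl2a1b stood at 49.34, 46.08 and 49.74 FPKM in lean and 69.26, 65.28 and 77 FPKM in obese libraries, well apart. Myeloid cells express these copies too, and the part of the macrophage markers, which rose in the same libraries, was not tested.

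Among 14 autophagy genes of the ATG8 conjugation pathway none was called. Gabarapl1, an ATG8 protein, had means of 9.02 ± 0.180 (lean) and 11.9 ± 1.34 FPKM (obese; SD, n = 3 each) and did not pass (0.36; limma, adjusted p = 0.0755). It passed with library weights (0.28; limma, adjusted p = 0.0311) and after scaling without the 10 genes named above (0.46; limma, adjusted p = 0.0490), and was 0.22 after median-of-ratios scaling and 0.19 after quantile normalization. Map1lc3a, another, had a log2 difference of 0.35 (limma, adjusted p = 0.213), which was 0.14 to 0.21 after quantile normalization, after median-of-ratios scaling and without obese 3. Of 12 genes of the GSK3 and FOXO quiescence axis none was called. Lef1, a transcription factor of naive T cells, had −0.44, and Klf3, a repressor in lymphocytes, had 0.31 (limma, adjusted p = 0.0917 and 0.0937). Klf3 was 0.40 and passed without lean 3 (limma, adjusted p = 0.0419), passed with library weights (0.42; limma, adjusted p = 0.00401), and was 0.16 after median-of-ratios scaling. Lef1 was −0.26 without obese 3, and passed with library weights (−0.28; limma, adjusted p = 0.0339).

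Of 8 tested Notch genes, 1 fell and none rose; the same shares of all genes amount to less than 1 gene of 8. The one that fell was Dtx1, a Notch target and ubiquitin ligase linked to T cell anergy, with 133.5, 151.24 and 141.73 FPKM in lean and 106.34, 120.29 and 100.74 FPKM in obese libraries. The groups did not overlap, and the log2 difference was −0.38 ± 0.09 (SE; limma, adjusted p = 0.0395). When 1 library was left out it passed only without obese 2, and the adjusted p without any other single library (lean 1, lean 2, lean 3, obese 1, obese 3) was 0.0586 to 0.132 (limma). The call was also lost after scaling by core T cell markers (−0.31; limma, adjusted p = 0.112), and at adjusted p from 0.0503 to 0.0772 after TPM scaling, after scaling without the 10 genes named above, without the intensity trend, without a filter and at a minimum of 5 FPKM (limma). Of 12 lymphoid transcription factors, 1 rose, Ikzf3, beside 5.77% of all tested genes. Its log2 difference was 0.39 (limma, adjusted p = 0.0486). This call was lost when lean 1, lean 2, obese 1 or obese 3 was left out (limma, adjusted p from 0.102 to 0.146). At 0.25 after median-of-ratios scaling the call was lost as well (limma, adjusted p = 0.145). It was lost too after scaling by core T cell markers or quantile normalization, without the intensity trend, without a filter and at a minimum of 5 FPKM (limma, adjusted p from 0.0592 to 0.114). B cells express Dtx1 and Ikzf3 as well. Their 12 markers all had a positive difference, the direction of Ikzf3 and not that of Dtx1, and their part in either value was not tested.

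Interferon-inducible GTPases, another family of immune GTPases, had no called gene among 14 tested. Their median log2 difference was 0.26, with 13 of 14 positive, beside −0.03 for the 8 GIMAP genes and 0.10 for all tested genes. Of all 10788 tested genes, 7634 had a positive difference. The median of this list under other scalings was not examined. Iigp1 and Gbp5 of that family had 0.51 and 0.38 (limma, adjusted p = 0.111 and 0.128). Without lean 1 Iigp1 was 0.70 and passed (limma, adjusted p = 0.0464). Both were lower after quantile normalization (0.32 and 0.18) and with library weights (0.16 each), and Gbp5 was 0.25 after median-of-ratios scaling.

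The genes whose pattern over the 6 libraries was most like the mean of the 8 GIMAP genes were ranked by Pearson correlation of log2(FPKM + 1) among 7780 genes with a mean of at least 5 FPKM. The 10 most alike were Isy1 (0.99), Ewsr1 (0.98), Nsfl1c (0.96), Mvb12b, Itga2b, Lysmd2, Slc4a1ap, Dctn6, Rab28 and Cish (0.92). Isy1 and Ewsr1 take part in RNA processing, and Cish is a feedback inhibitor of cytokine signalling. The ranking is a description over 6 libraries, which share their scaling, and carries no test.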

How the data were processed

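The deposited files are 1 table per library, with FPKM to 2 decimals by gene. FPKM values were made by the authors; Bowtie and RSEM and the builds GRCm38 and mm10 are named per the submitters' processing notes, without versions or roles. The annotation, any filter, the read length and the strand setting are not given in the sources. Low values multiplied by transcript length, less an assumed fragment length, were examined for steps of 1 read. The score of such steps reached at most 0.248, against at least 0.947 for whole reads simulated at 1 fixed step size. Very fine steps could not be scored, so the search does not tell how deep the libraries are. Depth is unknown, and precision rests on the spread between libraries.

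Values were taken as log2(FPKM + 1) for genes reaching 1 FPKM in 3 or more of the 6 libraries and tested with limma 3.58.1 in R 4.3.3 (intensity trend, group as sole term, 2-sided, Benjamini-Hochberg over all 10788 genes, threshold 0.05); the script was tested on simulated data. Differences are obese minus lean. Groups came from the sample titles. The members, gene lists and tests were chosen with earlier results of these data known. Named genes were the 8 members; from each pathway list up to 4 called genes, or the 2 with the smallest p; and the 10 most similar patterns. Marker lists are given by counts and sums. Cis-neighbours, coding identity (Biopython 1.88) and shared words were added after the values were seen. Alternatives were another pseudocount, other filters, scalings and models of the variance, weights per library, a block for the replicate number, and the omission of single libraries.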

Additional observations from a re-analysis of the deposited data

How the results depend on the processing

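None of the 8 GIMAP genes passed in 17 of the 18 other settings tried. With library weights 1 passed, Gimap3, which was lower. Of the 144 gene-by-setting values, 18 had the opposite sign to the one reported, all of them for the 6 genes whose reported difference was under 0.1 in size. Gimap3 stayed negative (−0.38 to −0.12) and Gimap8 positive (0.11 to 0.36) in all 18. After median-of-ratios scaling Gimap6 was −0.058 and Gimap7 −0.13. With library weights Gimap6 was −0.052, Gimap7 −0.094 and Gimap9 0.016. After TPM scaling Gimap5 was 0.0027 and Gimap9 0.058, and after scaling by core T cell markers they were 0.011 and 0.066. Scaling without 10 immunoglobulin, haemoglobin and mitochondrial genes gave 0.016 for Gimap1, 0.015 for Gimap4, 0.046 for Gimap5 and 0.10 for Gimap9. Leaving out 1 library at a time, Gimap5 ranged from −0.17 to 0.027, Gimap7 from −0.040 to 0.092 and Gimap9 from −0.096 to 0.092.

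Over all genes, 678 were called as reported, 368 without a filter and 352 at a minimum of 5 FPKM. Quantile normalization gave 434, TPM scaling 815, scaling without the 10 genes 987 and library weights 3116. The cause of these differences was not tested, and the filters also change the number of genes tested. Leaving out 1 library at a time gave 318 (without lean 2) to 698 (without lean 3), and 326 without lean 1. The replicate number as a block gave 1015 called genes and 0 called GIMAP genes. Deviations of same-numbered libraries correlated at 0.03, 0.06 and 0.19, and those of differently numbered ones at −0.17 to 0.16. These values do not settle whether the libraries are paired, and the main test took them as unpaired. The GIMAP to T cell ratio differed between groups by 1.51% with Cd3e and 4.14% with Cd4 as the denominator, and by −1.40% to 4.41% with 1 library left out. The unknown depth and 3 libraries per group limit what could be detected. As reported, the 95% intervals of the 8 members lay between folds of 0.750 and 1.42. On the log2 scale those of 6 of the 8 include 0.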
